A study of Mus musculus with 6 samples.

Results

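The genes described here are 6 ligands of the epidermal growth factor (EGF) family and 3 ErbB receptors, measured in spheroids of 4T1 cells, a mouse line of triple-negative breast cancer. The ligand genes are Areg, Ereg, Hbegf, Tgfa, Btc and Nrg1, and the receptor genes are Egfr, Erbb2 and Erbb3. They were taken by gene symbol, and all 9 were found among the 48820 gene identifiers measured. The groups compared were 3 libraries of spheroids labelled LATS1/2 double-knockout (dKO) and 3 libraries of spheroids labelled wild type (WT). All were grown in RPMI with serum. LATS1 and LATS2 are the Hippo pathway kinases that restrain the coactivators YAP and TAZ, and the comparison asks how expression differs when they are knocked out. The labels give no clone number for the dKO line. Each label carries a biological repeat number, but none says whether the 3 libraries of a group came from separate cultures. The p-values therefore measure the spread between these libraries, which may in part be technical.

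EGF-family ligands are made as membrane-anchored precursors that are cut from the cell surface, mostly by ADAM metalloproteases, and then bind ErbB receptor tyrosine kinases on the same or nearby cells. Amphiregulin (Areg) and TGF-alpha (Tgfa) bind EGFR, while HB-EGF (Hbegf), betacellulin (Btc) and epiregulin (Ereg) bind EGFR and ErbB4, and neuregulin 1 (Nrg1) binds ErbB3 and ErbB4. ErbB2 has no known soluble ligand and serves as the preferred dimer partner, and ErbB3 has an impaired kinase and signals through its partners. The family drives growth of the mammary epithelium, where amphiregulin is the main ligand downstream of the oestrogen receptor, and its receptors signal through Ras-ERK and PI3K-AKT.

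The 3 dKO libraries held 38194478 to 42486146 counts and the 3 WT libraries 40150225 to 49630116. Levels are given as CPM, counts scaled to library size with TMM factors, and changes as log2 fold changes, dKO minus WT. Lats1 stood at 50.9 ± 2.55 CPM in the libraries labelled dKO and at 153 ± 6.36 CPM in WT (SD, n = 3 each). Lats2 stood at 77.9 ± 12.5 CPM in the libraries labelled dKO, above the 27.2 ± 4.01 CPM in WT. Lats2 shares 2955 exon bases with Gm49361 on its own strand, so its reads may be split. A count table cannot show a frameshift, so the Lats2 level is no check of the knockout, and dKO below means the libraries so labelled. The epithelial marker genes Epcam, Krt8 and Krt18 were lower in dKO but high in every library, at 288 ± 15.7, 1116 ± 187 and 951 ± 133 CPM in dKO, and in WT at 795 ± 20.6, 1636 ± 150.3 and 1501 ± 85.9 CPM. The epithelial genes Cdh1 and Krt14 were higher, at 861 ± 55.6 and 135 ± 42.9 CPM in dKO and at 412 ± 14.6 and 14.6 ± 3.70 CPM in WT, so the list split, with 3 of 6 tested genes lower, 2 higher and 1 short of the threshold. The progesterone receptor gene Pgr was at 0 counts in all 6 libraries and the oestrogen receptor gene Esr1 at 7.997 ± 1.45 CPM in dKO and 6.08 ± 1.70 CPM in WT. The first principal component, with 92.39% of the variance, separated the groups. On the second, with 3.76%, WT 2 and dKO 3 each stood away from the remaining libraries of their group.

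Of the 9 genes, 8 passed the filter on low counts and were tested, and all 8 were called at an adjusted p under 0.05 by the edgeR quasi-likelihood test. The share of all 15807 tested genes called was 57.3%, with 28.7% lower and 28.6% higher in dKO, so a call is common in this comparison. Areg, Tgfa, Hbegf, Btc, Erbb2 and Erbb3 fell, and Nrg1 and Egfr rose. Ereg did not pass the filter and was detected only in dKO libraries. For 5 of the falling genes and both rising genes no dKO library lay within the WT range, where 33.0% of all tested genes lay wholly lower and 32.7% wholly higher in dKO, or 65.6% in all. The median log2 fold change of the 8 tested genes was -1.02, against -0.01 over all tested genes. Without WT 2 and dKO 3 all 9 genes were tested and called, and calls over all genes rose from 9060 to 10139. Ereg passed the filter there only through dKO 1 and dKO 2, where it was high, so its call is no support.

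**Figure D1:**
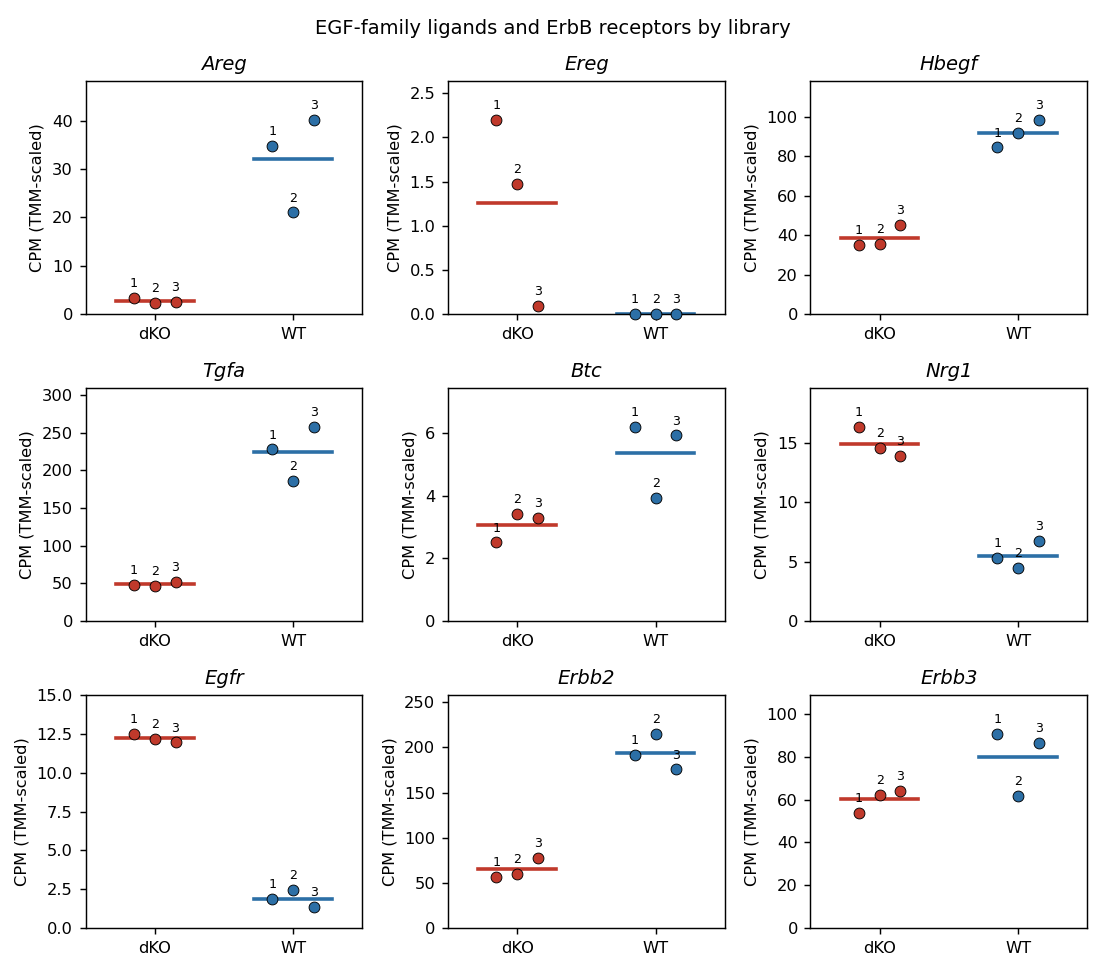
Levels in CPM (vertical axes, TMM-scaled, each starting at 0) of the 9 genes in each library. Points are libraries, numbered by replicate, and bars are group means. The dKO points lie below the WT points for Areg, Hbegf, Tgfa, Btc and Erbb2 and above them for Ereg, Nrg1 and Egfr, while WT 2 lies among the dKO points for Erbb3.

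Among the 5 tested ligand genes, Areg changed most. Areg (ENSMUSG00000029378, GRCm38 chr5:91139599-91148432) had 3.35, 2.33 and 2.54 CPM in dKO 1, dKO 2 and dKO 3, against 34.7, 21.0 and 40.1 CPM in WT 1, WT 2 and WT 3. The groups did not overlap, and WT 2 was the lowest WT library. Areg fell by 3.55 ± 0.27 on the log2 scale (SE, edgeR quasi-likelihood test, adjusted p = 7.36e-06), an 11.7-fold lower level, and 6.63% of tested genes changed by at least as much in either direction. In bulk RNA, fewer cells that express a gene and less RNA per cell cannot be told apart.

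The RefSeq promoter window of Areg, 250 bases before to 50 bases after the gene start (GRCm38.p6 chr5:91139349-91139648, plus strand), is shown because Areg had the largest fall among the tested genes of the family. Capitals mark the letters TGACGTCA, the cAMP response element, the first of which lies 61 bases before the start.
Areg: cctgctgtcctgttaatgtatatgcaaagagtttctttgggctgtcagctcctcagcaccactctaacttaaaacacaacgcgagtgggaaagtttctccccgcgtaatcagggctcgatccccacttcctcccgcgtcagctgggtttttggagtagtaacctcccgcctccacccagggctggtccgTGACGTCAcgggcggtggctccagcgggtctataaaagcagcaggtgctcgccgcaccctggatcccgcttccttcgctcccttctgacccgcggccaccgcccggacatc
Only 1.79% of the 32851 promoter windows in the same RefSeq set hold these letters on either strand. This window holds none of the other 3 motifs searched on both strands, the TEAD motif GGAATG, the AP-1 motif TGANTCA and the ETS motif CCGGAAGT. A match is a run of letters and not a measured binding site.

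Tgfa (ENSMUSG00000029999, chr6:86195223-86275719) was the ligand gene with the most counts in both groups. Its levels were 47.9, 47.1 and 52.0 CPM in dKO 1, dKO 2 and dKO 3, against 228, 186 and 258 CPM in WT 1, WT 2 and WT 3. The spread in dKO was small and every WT library lay far above it. Tgfa had a log2 fold change of -2.19 ± 0.12 (adjusted p = 1.06e-06 by edgeR), a 4.57-fold lower level. Tgfa shares 118 exon bases with Gm43917, an unclassified transcript on the other strand that had 0, 6 and 0 counts in dKO and 62, 22 and 62 counts in WT, a small number beside the 7502 to 11954 counts of Tgfa in WT.

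Hbegf (ENSMUSG00000024486, chr18:36504927-36515805) encodes HB-EGF, a heparin-binding ligand that also acts while still attached to the membrane. Hbegf had 35.1, 35.5 and 45.4 CPM in dKO 1, dKO 2 and dKO 3, against 84.5, 92.0 and 98.5 CPM in WT 1, WT 2 and WT 3. The groups did not overlap, and dKO 3 was the highest dKO library. For Hbegf the log2 fold change was -1.25 ± 0.12 (edgeR adjusted p = 2.61e-05), a 2.37-fold lower level, and 23.9% of tested genes changed by at least as much.

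Btc (ENSMUSG00000082361, chr5:91357261-91402994) was low throughout, at 2.51, 3.42 and 3.31 CPM in dKO 1, dKO 2 and dKO 3, against 6.20, 3.92 and 5.93 CPM in WT 1, WT 2 and WT 3. The groups did not overlap, but WT 2 lay close to the dKO libraries. The log2 fold change was -0.80 ± 0.26 (edgeR adjusted p = 0.0276), and 39.1% of tested genes changed by at least as much. The call was lost without WT 1, without WT 3 and without dKO 1 (edgeR adjusted p = 0.103, 0.087 and 0.0928), while the direction held. Over all alternatives its adjusted p ran from 0.00598 to 0.232.

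Nrg1 (ENSMUSG00000062991, chr8:31814551-32884029), the ErbB3 ligand of the set, went the other way. Its levels were 16.4, 14.5 and 13.9 CPM in dKO 1, dKO 2 and dKO 3, against 5.33, 4.44 and 6.73 CPM in WT 1, WT 2 and WT 3. Every dKO library was above every WT library. This gave a log2 fold change of 1.44 ± 0.19 (adjusted p = 0.000183 by edgeR), a 2.71-fold higher level. Nrg1 shares 482 exon bases with Gm26578, a lincRNA on the other strand that had 66, 111 and 105 counts in dKO and 2, 24 and 0 counts in WT, against 592 to 625 counts of Nrg1 in dKO. Reads from the shared bases cannot be told apart if strand was not used in counting.

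Ereg (ENSMUSG00000029377, chr5:91074622-91093646) was not tested, because dKO 3 lay under the filter. It had 84, 60 and 4 counts in dKO 1, dKO 2 and dKO 3, or 2.198, 1.47 and 0.0931 CPM, and 0 counts in all 3 WT libraries. Detection thus rested on dKO 1 and dKO 2. A floor of 12 counts per WT library, which is 3 read pairs at up to 4 counts each, averaged 0.267 CPM. Against it the dKO mean was at least 4.71-fold higher, and at least 6.89-fold higher without dKO 3, the lowest dKO library. These bounds hold for the means only, since dKO 3 itself lay under the floor. With no count filter the adjusted p of Ereg was 0.00576 by edgeR and 6.78e-07 by DESeq2. Where Ereg passed the filter with libraries left out, it did so only through dKO 1 and dKO 2, where it was high. The values without a count filter rest on the same dKO libraries. Neither they nor those calls are therefore support for a difference. The antisense partner of Ereg, Gm19610, had 0 counts in every library.

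The same split among dKO libraries was seen in some leukocyte markers, whose part in the Ereg result was not tested. It was not particular to them. In dKO 1, dKO 2 and dKO 3, the chemokine gene Cxcl3 had 43.8, 41.3 and 14.2 CPM and Ier3 had 480, 455 and 242 CPM. The leukocyte markers Cd68 (17.3, 15.75 and 13.7 CPM) and Itgam (13, 13 and 20 counts) did not show the split. Adgre1, a macrophage marker gene, had 81, 103 and 0 counts in dKO 1, dKO 2 and dKO 3 and 0 counts in WT. Csf1r, the CSF1 receptor gene of macrophages, had 188, 189.6 and 62.7 CPM in dKO 1, dKO 2 and dKO 3, against 3.55, 14.2 and 1.01 CPM in WT 1, WT 2 and WT 3. The 8 leukocyte markers summed to 77.0 to 209 CPM in dKO libraries and 3.3 to 16.3 CPM in WT libraries, nearly all of it Csf1r and Cd68. The 3 that were tested, Itgam, Csf1r and Cd68, were called higher. Itgam had 0 counts in every WT library and passed the filter only through dKO, where it was high, so its call is no support. It shares 3450 exon bases with Gm49368 on its own strand, so its reads may be split. Csf1r was not called without WT 1 (edgeR adjusted p = 0.0669). Of the remaining markers in the list, Cd3e was at 0 in all 6 libraries and Lyz2 stayed at or under 12 counts. Ptprc, the CD45 gene, had 4, 17 and 0 counts in dKO 1, dKO 2 and dKO 3 and 0 in WT. The 7 fibroblast markers summed to 0.652 to 1.74 CPM in dKO and 0.174 to 0.754 CPM in WT, and the 5 endothelial markers to 0 to 1.03 CPM in dKO and 0.304 to 1.36 CPM in WT, with Lum, Thy1, Kdr and Emcn at 0 in every library.

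Among the receptors, Egfr and Erbb2 moved in opposite directions. Egfr (ENSMUSG00000020122, chr11:16752203-16918158) had 12.5, 12.2 and 11.96 CPM in dKO 1, dKO 2 and dKO 3, against 1.87, 2.43 and 1.34 CPM in WT 1, WT 2 and WT 3. In counts this was 479 to 514 in dKO and 62 to 98 in WT. The dKO libraries were close together and well above every WT library. Its log2 fold change was 2.71 ± 0.24 (edgeR adjusted p = 1.84e-05), a 6.52-fold higher level, and 9.26% of tested genes changed by at least as much. Egfr contains Egfros, an antisense gene with no exon bases in common, which did not pass (edgeR adjusted p = 0.595).

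Erbb2 (ENSMUSG00000062312, chr11:98412470-98437716) had 56.9, 60.1 and 77.7 CPM in dKO 1, dKO 2 and dKO 3, against 192, 216 and 176 CPM in WT 1, WT 2 and WT 3. The groups did not overlap, with dKO 3 the highest dKO library. Erbb2 had a log2 fold change of -1.58 ± 0.13 (adjusted p = 1.12e-05 by edgeR), a 2.99-fold lower level. Erbb2 shares 9 exon bases with its neighbour Mien1 on the other strand, which also fell (log2 fold change -0.45 ± 0.13, edgeR adjusted p = 0.0146).

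The promoter windows of Egfr (GRCm38.p6 chr11:16751953-16752252, plus strand) and Erbb2 (chr11:98412234-98412533, plus strand) are shown because these receptor genes lie on the same chromosome and changed in opposite directions. Capitals in Erbb2 mark a match to the TEAD letters GGAATG, whose first base lies 88 bases before the RefSeq start. For Erbb2 that start lies downstream of the GENCODE gene start given above. TEAD factors are the DNA-binding partners of YAP and TAZ.
Egfr: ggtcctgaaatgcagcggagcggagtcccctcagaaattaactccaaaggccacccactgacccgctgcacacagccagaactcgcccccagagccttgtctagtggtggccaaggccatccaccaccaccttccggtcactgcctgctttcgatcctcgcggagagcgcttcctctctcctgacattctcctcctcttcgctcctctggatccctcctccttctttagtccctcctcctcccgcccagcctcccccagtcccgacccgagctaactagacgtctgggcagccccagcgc
Erbb2: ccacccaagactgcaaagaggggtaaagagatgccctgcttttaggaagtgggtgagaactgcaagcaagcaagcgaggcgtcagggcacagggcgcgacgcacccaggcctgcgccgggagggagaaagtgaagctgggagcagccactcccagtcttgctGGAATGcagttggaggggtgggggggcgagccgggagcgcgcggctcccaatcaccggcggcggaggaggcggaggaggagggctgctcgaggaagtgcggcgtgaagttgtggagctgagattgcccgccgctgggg
The TEAD letters occur in 14.7% of all windows, the AP-1 letters in 7.81% and the ETS letters in 3.89%. The Egfr window holds none of the 4 motifs, nor do the windows of Tgfa and Btc. Windows were examined for 5 of the 9 genes, and those of Ereg, Hbegf, Nrg1 and Erbb3 were not examined. The matches were not tested against expression.

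Erbb3 (ENSMUSG00000018166, chr10:128567523-128589652) changed least. It had 54.0, 62.1 and 64.2 CPM in dKO 1, dKO 2 and dKO 3, against 90.9, 61.9 and 86.5 CPM in WT 1, WT 2 and WT 3. WT 2 lay inside the dKO range, so the groups overlapped. The log2 fold change was -0.41 ± 0.14 (edgeR adjusted p = 0.0361), and 63.4% of tested genes changed by at least as much. The call was lost without WT 1, without WT 3, without dKO 1, without dKO 2 and without dKO 3 (edgeR adjusted p = 0.136, 0.112, 0.131, 0.0753 and 0.0505). It held without WT 2, and over all alternatives the adjusted p ran from 6.52e-05 to 1.

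**Figure D2:**
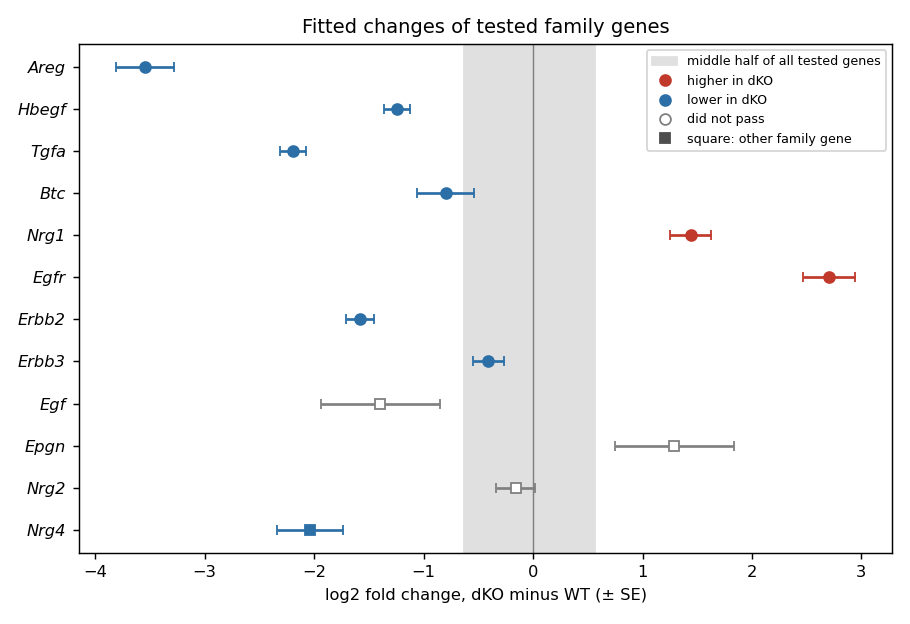
Fitted log2 fold changes, dKO minus WT (horizontal axis), with their SE for the tested family genes. Circles are the 8 tested genes of the set, squares the other family genes, open symbols did not pass, and the grey band is the interval from -0.63 to 0.57 that holds the middle part of all tested genes between the quartiles. Areg lies farthest to the left and Egfr farthest to the right.

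To compare genes with each other, counts were divided by the length of the merged exons, giving CPM per kilobase. On this scale the 6 ligand genes summed to 20.1, 19.0 and 21.6 in dKO 1, dKO 2 and dKO 3, against 83.0, 66.3 and 95.1 in WT 1, WT 2 and WT 3. The 3 receptor genes summed to 21.0, 22.9 and 26.6 in dKO, against 52.1, 51.9 and 48.2 in WT. Neither sum overlapped between groups. The log2 ratio of the summed level was -1.996 ± 0.278 for the ligands and -1.11 ± 0.18 for the receptors (SD of the difference, from the spread of libraries), and no test was made of these sums. With the length of the longest transcript instead, the ratios were -1.85 for the ligands and -1.12 for the receptors. The shares and orders below rest on merged exon lengths and were not repeated with another length.

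The make-up of the ligand sum differed between groups. Areg held 11.2 ± 2.23% of it in dKO and 31.8 ± 4.90% in WT (SD, n = 3 each). Hbegf held 39.4 ± 3.71% in dKO and 23.7 ± 4.30% in WT, so its share was larger in dKO although its level was lower. Tgfa held 37.3 ± 0.688% in dKO and 42.4 ± 0.756% in WT, and Nrg1 held 7.16 ± 0.849% in dKO and 0.650 ± 0.0316% in WT. Btc held 3.37 ± 0.601% in dKO and 1.45 ± 0.182% in WT, and Ereg at most 2.65% in any dKO library.

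Among the receptors, Erbb2 held 52.8 ± 2.93% of the sum in dKO and 73.5 ± 5.48% in WT, and Erbb3 42.6 ± 2.49% in dKO and 26.2 ± 5.56% in WT. Egfr held 4.64 ± 0.655% in dKO and 0.325 ± 0.0849% in WT, so it stayed the least abundant receptor transcript of the 3 in every library.

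In dKO the order of level per length was Erbb2, Erbb3, Hbegf, Tgfa, Areg, Nrg1, Egfr, Btc and Ereg. Erbb3 and Hbegf, and Hbegf and Tgfa, had overlapping ranges, at 9.99 ± 0.898, 7.999 ± 1.203 and 7.55 ± 0.408 CPM per kilobase, while the other neighbours did not overlap. In WT the order was Erbb2, Tgfa, Areg, Hbegf, Erbb3, Btc, Nrg1, Egfr and Ereg. Each of Erbb2, Tgfa and Areg overlapped the next gene in that order, at 37.3 ± 3.85, 34.5 ± 5.54 and 26.3 ± 8.10, with Hbegf at 19.0 ± 1.45, and the lower neighbours did not overlap.

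**Figure D3:**
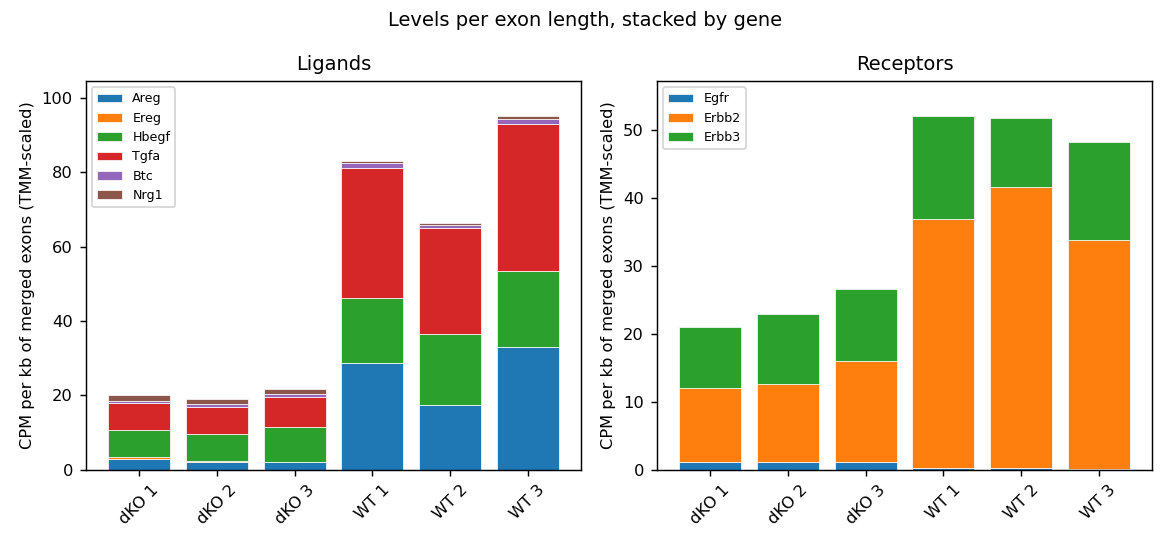
CPM per kilobase of merged exons (vertical axes, TMM-scaled) for the 6 ligand genes and the 3 receptor genes, stacked by gene for each library. The ligand bars reach 19.0 to 21.6 in dKO and 66.3 to 95.1 in WT, and the thin Egfr segment is taller in dKO.

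The rest of the family was sparse. Egf had 0.314, 0.467 and 0.884 CPM in dKO 1, dKO 2 and dKO 3, against 1.07, 2.31 and 1.03 CPM in WT 1, WT 2 and WT 3, and did not pass (log2 fold change -1.39 ± 0.55, edgeR adjusted p = 0.0545). Without dKO 3 it passed (adjusted p = 0.0253), and Egf overlaps antisense genes in its exons. Epgn, the epigen gene, had 1.46, 0.835 and 0.698 CPM in the dKO libraries, against 0.406, 0.248 and 0.560 CPM in WT, and did not pass (log2 fold change 1.29 ± 0.55, edgeR adjusted p = 0.0707). Nrg4, an ErbB4 ligand gene, fell to 1.27 ± 0.387 CPM in dKO, against 5.23 ± 0.407 CPM in WT (log2 fold change -2.04 ± 0.30, edgeR adjusted p = 0.000401), and shares exon bases with Fbxo22 on the other strand. Nrg2 did not pass (log2 fold change -0.16 ± 0.18, edgeR adjusted p = 0.479), and Nrg3 and the receptor gene Erbb4 were at 0 counts in all 6 libraries.

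Areg, Ereg, Epgn and Btc lie near each other on chromosome 5, and only Areg and Btc among them were called. Epgn starts 112.1 kb and Ereg 65.0 kb before the Areg start, and Btc starts 263.4 kb after it on the other strand. Epgn and Ereg had their higher values in dKO, with Epgn not past the test and Ereg not tested, while Areg and Btc fell. An opposite direction within the cluster thus rests on genes without a call. Within 500 kb of the Areg start, 22 other genes are annotated and listed, of which 12 were tested, 2 rose, 5 fell and 5 did not pass, a share of calls near the 57.3% of all tested genes.

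**Figure D4:**
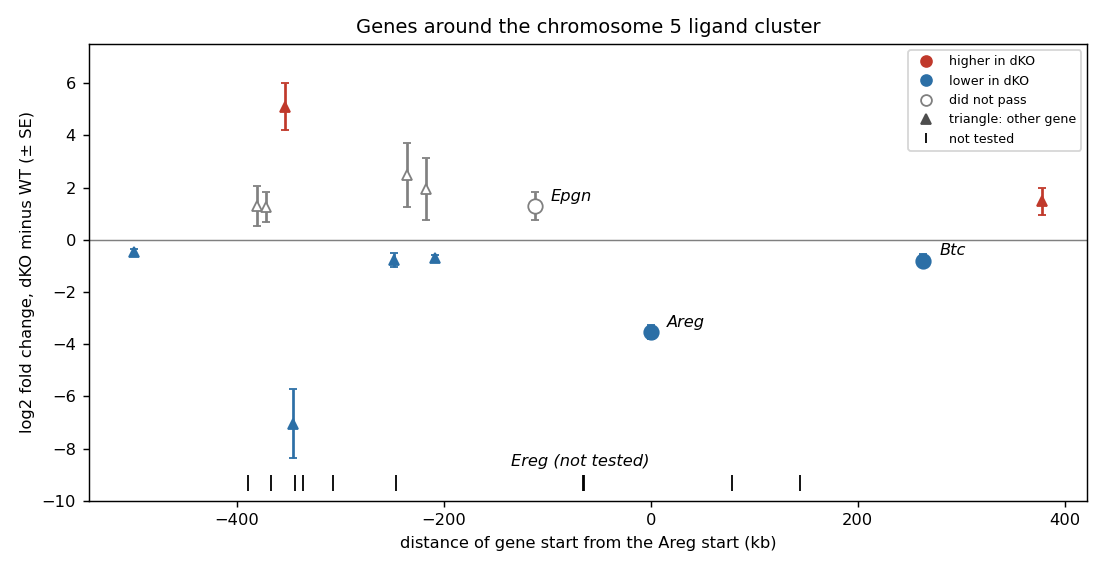
Log2 fold change, dKO minus WT, with its SE (vertical axis) of tested genes against the distance of their start from the Areg start in kb (horizontal axis). Large circles are ligand genes, triangles other genes, open symbols did not pass, and ticks at the bottom mark genes that were not tested, Ereg among them. Areg lies at -3.55, below Btc at -0.80 and Epgn at 1.29.

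Genes that release the ligands changed in both directions. For this list and those that follow, the shares over all tested genes were 57.3% called, 28.7% lower and 28.6% higher in dKO, and no list was tested against them. Of 11 release genes, all tested, 2 were higher, 6 were lower and 3 missed the threshold, and the list's median log2 fold change was -0.27. Adam17, the main sheddase of amphiregulin and TGF-alpha, was at 98.5 ± 7.44 CPM in dKO and 87.2 ± 4.39 CPM in WT and did not pass (edgeR adjusted p = 0.0989), though it passed without dKO 3 (adjusted p = 0.0238) and without WT 2 and dKO 3 (0.0103). Rhbdf1 and Rhbdf2, which encode the iRhom proteins that mature and carry ADAM17, fell by 0.63 ± 0.10 and 0.77 ± 0.09 on the log2 scale (edgeR adjusted p = 0.000572 and 9.6e-05). Adam9, another membrane metalloprotease gene, rose to 364 ± 29.7 CPM in dKO, against 119 ± 8.25 CPM in WT, and Adam15 fell to 44.7 ± 3.37 CPM in dKO, against 88.5 ± 3.98 CPM in WT (edgeR adjusted p = 9.42e-07 and 1.52e-05). Adam17 shares 311 exon bases with Iah1 and Adam15 1263 with an antisense gene, so their reads may be mixed.

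Of 12 tested genes that restrain ErbB receptors, 7 fell, 3 rose and 2 missed the threshold, where 28.7% of all tested genes fell and 28.6% rose (median log2 fold change -0.38). Lrig1, which promotes ErbB receptor degradation, fell to 38.6, 38.7 and 45.3 CPM in dKO 1, dKO 2 and dKO 3, against 249, 238 and 246 CPM in WT 1, WT 2 and WT 3 (log2 fold change -2.58 ± 0.09, edgeR adjusted p = 6.68e-08). Errfi1, the MIG6 gene, whose product binds and inhibits the EGFR kinase, fell to 46.8, 52.0 and 39.3 CPM in the dKO libraries, against 172, 168 and 172 CPM in WT (log2 fold change -1.89 ± 0.10, edgeR adjusted p = 1.09e-06). Each WT library stood above every dKO library for these genes. Lrig1 shares 144 exon bases with Slc25a26 on the other strand.

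Downstream, 21 Ras-ERK relay genes were tested, of which 6 were higher, 8 lower and 7 short of the threshold (median 0.07), a share of calls near the 57.3% of all tested genes. Rasa1, a GTPase-activating gene that switches Ras off, fell by 1.37 ± 0.08 and Mapk3, the ERK1 gene, by 1.00 ± 0.07 on the log2 scale (edgeR adjusted p = 1.98e-06 and 3.05e-06). The 11 PI3K-AKT relay genes held 1 rise, 6 falls and 4 that missed the threshold (median -0.31), again near that share. The gene that rose was Pik3cb, a PI3K catalytic subunit gene, at 207 ± 6.80 CPM in dKO and 39.3 ± 1.49 CPM in WT (edgeR adjusted p = 4.48e-08), while Pik3r3, a regulatory subunit gene, fell to 12.4 ± 1.34 CPM in dKO, against 60.1 ± 15.9 CPM in WT (edgeR adjusted p = 1.21e-05). Pik3r3 shares 1289 exon bases with Gm49337 on its own strand, so its reads may be split.

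The 16 ERK output genes, which ERK signalling is known to induce, held 10 falls, 3 rises and 3 that missed the threshold, where 28.7% of all tested genes fell and 28.6% rose. Their median log2 fold change was -1.87. Dusp6, an ERK phosphatase gene, stood at 14.1, 12.9 and 10.98 CPM in dKO 1, dKO 2 and dKO 3, against 217, 206 and 236 CPM in WT 1, WT 2 and WT 3 (log2 fold change -4.12 ± 0.11, edgeR adjusted p = 3.28e-08). Etv4, a PEA3-group transcription factor gene, fell by 2.96 ± 0.09 on the log2 scale (edgeR adjusted p = 5.07e-08). These levels are RNA, and receptor activity and ERK phosphorylation were not measured here.

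**Figure D5:**
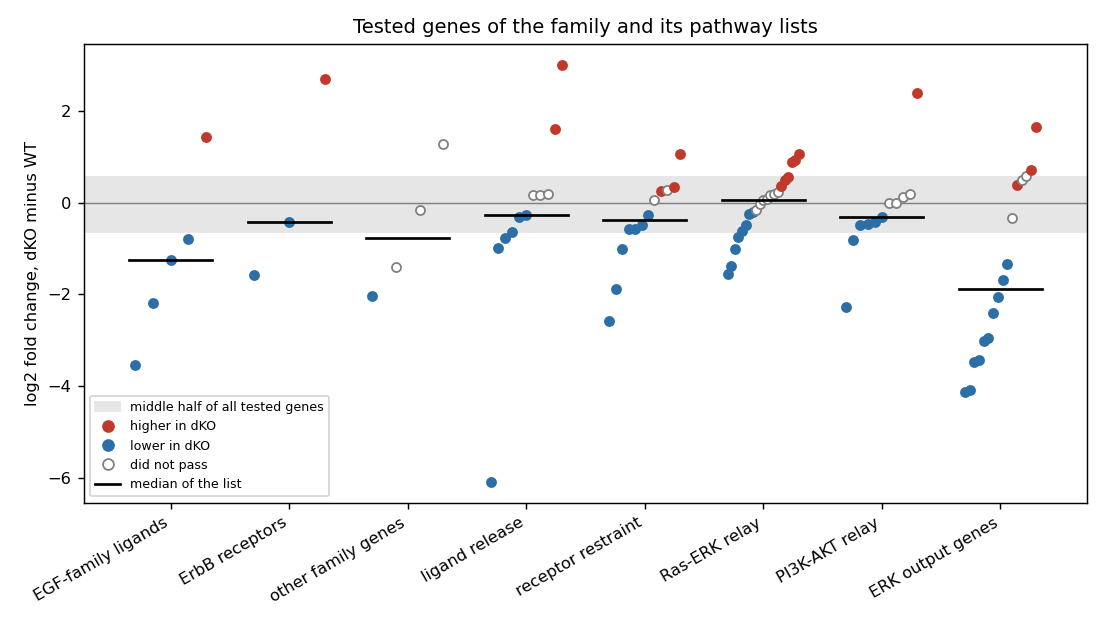
Log2 fold change, dKO minus WT (vertical axis), of every tested gene in the ligand, receptor and pathway lists (horizontal axis). Filled points passed, open points did not, black lines are list medians and the grey band runs between the quartiles of all tested genes. The ERK output genes have the lowest median, -1.87.

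Across the 6 libraries, the genes with a mean of at least 5 CPM whose log2 level followed Areg most closely were Cdc40, Tut4 and Lamb1 (Pearson r = 0.9993, 0.9992 and 0.9992). Those closest to Egfr were Cltb, Dnajc5 and Mroh1 (Pearson r = 0.9997, 0.9995 and 0.9993). Of 10739 genes, 1773 followed Areg and 1864 followed Egfr with r above 0.95. In 6 libraries, a difference between groups in the same direction that is large beside the spread within them gives a high r. The difference itself need not be large, and Dnajc5 had a log2 fold change of 0.57. These correlations are a description over 6 libraries that share their groups.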

How the data were processed

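RNA was measured in 3 libraries labelled dKO and 3 labelled WT. The deposited values are estimated counts per gene, whole numbers without normalization, and the 6 files deposited by sample equal the columns of the series table. HISAT2 2.2.1 and StringTie 2.2.1 with build GRCm38 (mm10) were used, per the submitters' processing notes. How counts per gene were made, with which annotation and whether by strand is not given in the sources used here. Values pile up at 4, with 678 to 775 genes at 4 counts and 273 to 367 at 5 per library, so a read pair may add up to 4 counts. A floor of 12 counts per library was therefore used, for counting error only.

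Symbols, positions and exon lengths came from GENCODE M21, which matched 48144 of 48820 identifiers. The test was edgeR 4.0.16 (R 4.3.3), with TMM scaling, filterByExpr by group, robust quasi-likelihood F-test, genotype as the only term, and Benjamini-Hochberg adjustment over 15807 genes, called under 0.05. The SE is the absolute log2 fold change over the square root of F. DESeq2 1.42.0 and other scalings, filters, thresholds, left-out libraries and a replicate block were alternatives. The script was tested on simulated data.

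The members and lists were chosen with earlier results of these data known. The rule for named genes took all 15 family genes, Adam17, Rhbdf1, Rhbdf2, Errfi1 and Lrig1 whatever their result, the 2 called genes with the smallest adjusted p in each other list, Lats1, Lats2 and identity markers. Leukocyte markers and genes overlapping the members were named outside it, after their values were seen. The values of 1 marker gene are not reported here.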

Additional observations from a re-analysis of the deposited data

How the results depend on the processing

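The directions of the 8 tested genes held in all 17 alternatives, as did the calls of Areg, Hbegf, Tgfa, Nrg1, Egfr and Erbb2. Btc and Erbb3 did not keep their calls. At an adjusted p under 0.01 and against a 1.5-fold change, which ask more by construction, neither was called, with unchanged log2 fold changes of -0.80 and -0.41. With a replicate block Btc was at -0.78 (edgeR adjusted p = 0.0567). With each library left out in turn Btc ran from -0.98 to -0.67 and Erbb3 from -0.56 to -0.31. The number of the 9 genes called ran from 6 to 9 over the alternatives. It includes Ereg wherever Ereg was called, and those Ereg calls are no support.

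Across all genes, 9060 were called, and 4556 against a 1.5-fold change. With a replicate block 8658 genes and 7 of the 9 were called. Deviations of same-numbered dKO and WT libraries correlated at -0.161, 0.16 and 0.234 for numbers 1, 2 and 3, so the numbers were not taken as pairs. The ratio of summed levels without WT 2 and dKO 3, an alternative added after the data were seen, was -2.18 for ligands and -1.19 for receptors. The low counts of Egf, Epgn and Ereg limit the precision of their values.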
